A study of Mus musculus with 6 samples.

Results

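The subject here is the set of genes for subunits of polycomb repressive complex 1 (PRC1) in mouse B cells. The 9 genes, Rnf2, Ring1, Bmi1, Pcgf5, Pcgf6, Cbx2, Cbx7, Cbx8 and Phc1, were taken by name from the platform annotation. Each had 1 probe set, so 9 of the 19938 genes measured are described. Expression was measured on 6 arrays in 3 groups of 2. Both lymphoma groups were primary B cell lymphomas of Eµ-Myc mice that carried a short hairpin RNA against Ezh2, shEzh2.781 in one and shEzh2.556 in the other. The third group held sorted splenic B cells of Eµ-Myc mice before malignancy, from 2 independent preparations. All 3 groups share the Eµ-Myc transgene, which drives the Myc oncogene from an immunoglobulin heavy chain enhancer in the B lineage. Lymphomas free of an Ezh2 hairpin were not analysed here, so tumour formation, the hairpin and the way the cells were purified cannot be told apart in any comparison with premalignant cells. Whether both arrays of a hairpin represent different animals is not in the labels. The p-values therefore reflect no more than the spread seen between these arrays, and that spread may be technical.

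PRC1 places ubiquitin on histone H2A and compacts chromatin at repressed genes. Its core pairs a catalytic RING protein, Rnf2 (RING1B) or Ring1 (RING1A), with 1 of the PCGF proteins, and the PCGF protein decides which other subunits can join. Canonical complexes, built on Bmi1 (PCGF4) or Pcgf2, take a CBX chromodomain protein, which binds the histone H3 lysine 27 methylation made by Ezh2, and a PHC protein, which lets complexes polymerise. Variant complexes, built on Pcgf1, Pcgf3, Pcgf5 or Pcgf6, take Rybp or Yaf2 instead and are recruited without that methyl mark. In blood cells Bmi1 is known for keeping stem cells self-renewing and for repressing Cdkn2a, and it was first found as a gene that cooperates with Myc in lymphomas of Eµ-Myc mice.

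Values are the deposited log2 signals, and each difference between groups is a log2 difference, given with its standard error (SE) from a limma fit to all genes. A gene was called when its Benjamini-Hochberg adjusted p over all 19938 genes was under 0.05. Replicate arrays differed by a median of 0.102 to 0.142 per gene, and array medians lay between 6.75 and 6.91. All 9 genes had a mean signal above the median gene. The mean over 7 B cell markers was 11.38 and 11.62 in shEzh2.781 lymphomas, 11.54 and 11.61 in shEzh2.556 lymphomas, and 11.66 and 11.58 in premalignant cells. Within that list 3 genes were called over all lymphomas, Cd22 higher by 0.55 and Pax5 and Blnk lower (-0.44 and -0.48). Markers of other cells and stages were not level, as the plot of marker lists shows. All 10 neutrophil markers fell over all lymphomas, with means of 7.87 and 8.44 in shEzh2.781 lymphomas, 6.87 and 6.33 in shEzh2.556 lymphomas, and 9.13 and 9.38 in premalignant cells. Of 10 pro-B and pre-B cell markers 8 fell, with means of 7.54 to 7.97 in lymphomas and of 9.04 and 9.33 in premalignant cells. Of 17 mitosis genes 13 fell, with means of 10.89 to 11.16 in lymphomas and of 11.48 and 11.45 in premalignant cells. Calls downwards over all lymphomas also took 3 of 5 eosinophil markers (median difference of the list -2.71), 3 of 5 megakaryocyte and platelet markers (-0.73), 4 of 6 NK cell markers (-0.56), 3 of 6 dendritic cell markers (-0.37, with 1 higher), 3 of 8 T cell markers (-0.13), 3 of 5 plasma cell markers (-0.43), 3 of 5 erythroid markers (-0.58) and 2 of 7 stromal and endothelial markers (-0.23). Of 9 macrophage and monocyte markers 3 were called higher (0.11). Of all genes, 9.61% were called lower and 5.60% higher over all lymphomas. The part of these lists in the values below was not tested. In such bulk samples, fewer cells of a type and less RNA per cell cannot be told apart.

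**Figure D1:**
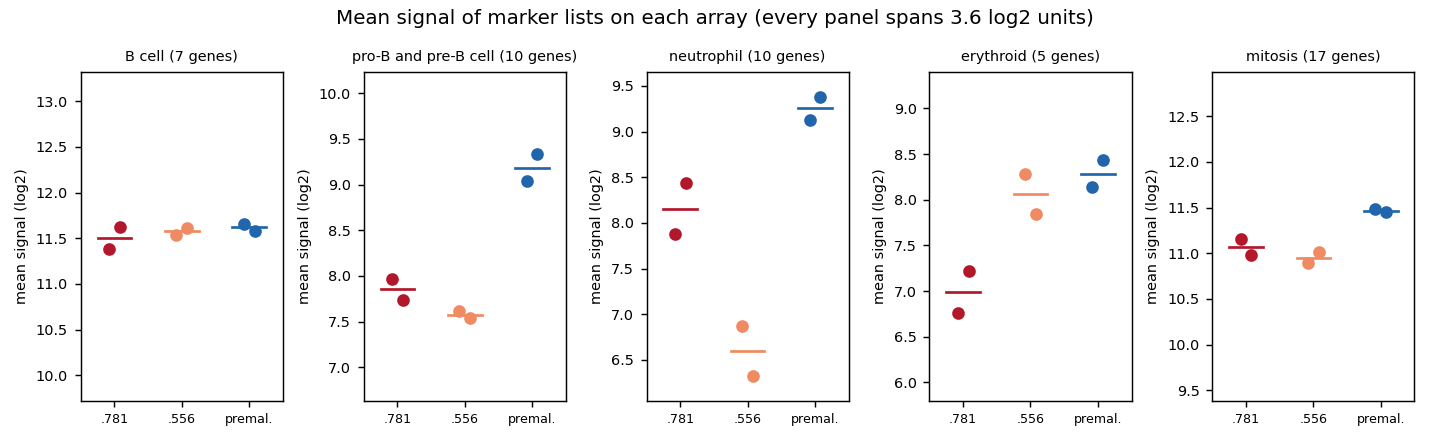
Mean log2 signal of 5 gene lists on each array (y axis), by group (x axis: shEzh2.781 lymphomas, shEzh2.556 lymphomas, premalignant B cells). Points are arrays and lines are group means. The B cell marker means of the 3 groups were close, with members called in both directions, while the means of pro-B and pre-B cell, neutrophil and mitosis genes were lower on all 4 lymphoma arrays than on both premalignant arrays.

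Over all lymphomas, 6 of the 9 PRC1 genes were called, 2 higher and 4 lower, where 15.2% of all genes were called (5.60% higher and 9.61% lower). Bmi1 and Pcgf6 rose, Cbx2, Cbx8, Pcgf5 and Phc1 fell, and Rnf2, Ring1 and Cbx7 were not called. The same 6 genes were those whose 4 lymphoma arrays all lay on one side of both premalignant arrays, as held for 28.8% of all genes. With shEzh2.781 alone 5 genes were called (2 higher and 3 lower, against 10.8% of all genes, 4.60% higher and 6.24% lower), and with shEzh2.556 alone 5 (1 higher and 4 lower, against 18.2%, 6.80% higher and 11.4% lower). The median difference of the 9 genes was 0.01 with shEzh2.781 and -0.28 with shEzh2.556, beside -0.03 and 0.07 over all genes. Between the hairpins 4 of the 9 were called, each higher in shEzh2.781 lymphomas, where 10.0% of all genes were called (5.50% higher and 4.53% lower). Both hairpin comparisons share the premalignant arrays. With all 4 lymphomas treated as 1 group the 6 calls became 2, those of Cbx2 and Cbx8, and the adjusted p was 0.267 for Bmi1, 0.117 for Pcgf5, 0.0507 for Pcgf6 and 0.134 for Phc1. The cause of these losses was not tested.

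**Figure D2:**
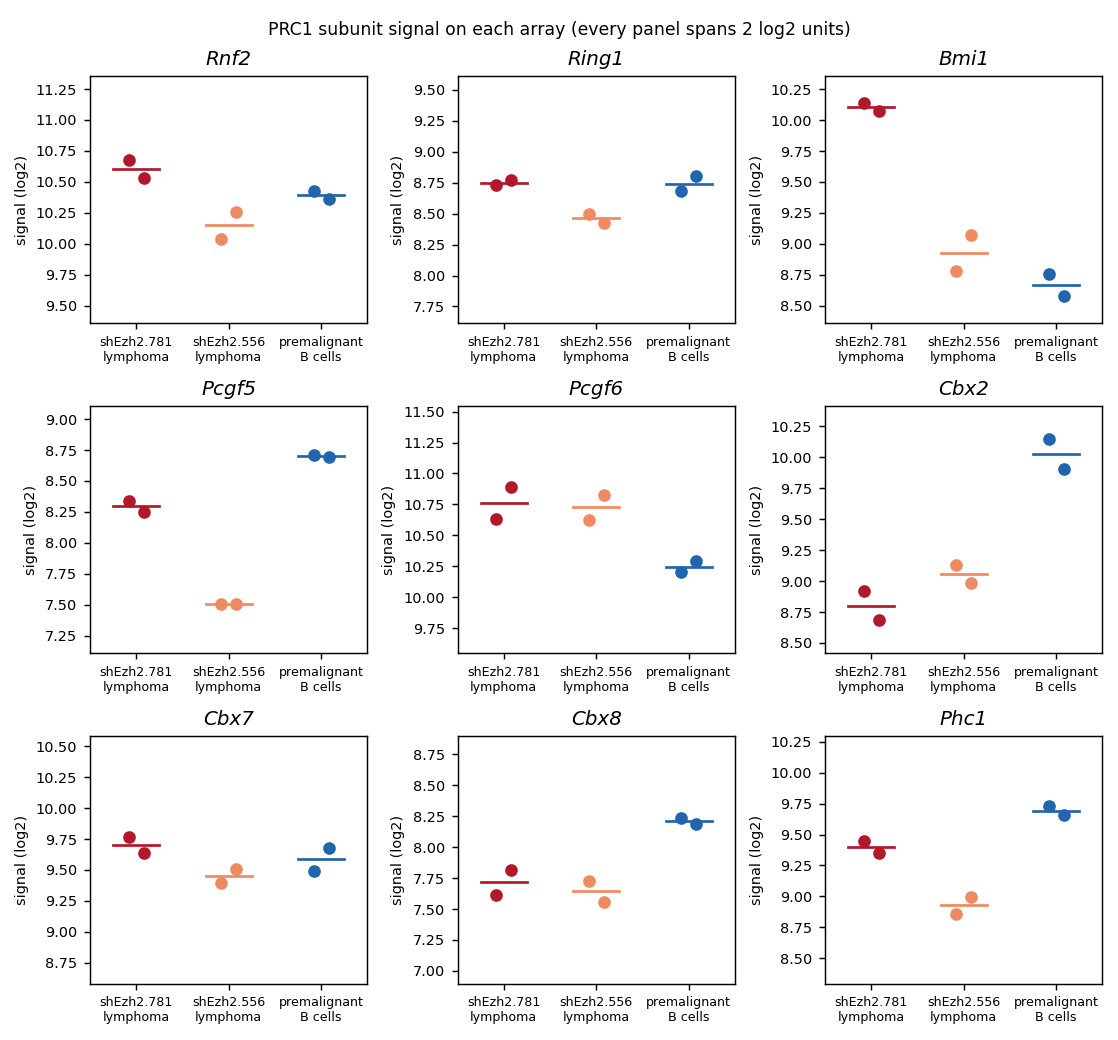
Log2 signal (y axis) of the 9 PRC1 genes on each of the 6 arrays, by group (x axis). Points are arrays and lines are group means of 2 arrays. Bmi1 stands at 10.14 and 10.08 on the shEzh2.781 arrays and at 9.07 or lower elsewhere, Pcgf5 is lowest on both shEzh2.556 arrays, and Cbx2 is lower on every lymphoma array than on both premalignant arrays.

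The 250 bases before the gene start are shown for 2 members that rose over all lymphomas (Bmi1, Pcgf6) and 2 that fell (Cbx8, Phc1), from RefSeq promoters of build GRCm38.p6. Capitals mark CACGTG, the E-box that MYC with its partner MAX is known to bind. It reads the same on both strands.
Bmi1, chr2:18676768-18677017, plus strand: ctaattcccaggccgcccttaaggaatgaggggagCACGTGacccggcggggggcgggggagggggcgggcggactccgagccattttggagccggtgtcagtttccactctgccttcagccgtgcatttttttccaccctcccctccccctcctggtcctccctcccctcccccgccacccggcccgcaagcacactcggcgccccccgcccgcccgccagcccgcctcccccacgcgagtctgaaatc
Pcgf6, chr19:47050907-47051156, minus strand: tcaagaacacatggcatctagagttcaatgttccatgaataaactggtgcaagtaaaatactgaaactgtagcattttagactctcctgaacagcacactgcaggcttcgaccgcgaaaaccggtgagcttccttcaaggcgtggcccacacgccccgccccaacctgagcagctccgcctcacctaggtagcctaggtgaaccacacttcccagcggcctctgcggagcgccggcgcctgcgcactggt
Cbx8, chr11:119040914-119041163, minus strand: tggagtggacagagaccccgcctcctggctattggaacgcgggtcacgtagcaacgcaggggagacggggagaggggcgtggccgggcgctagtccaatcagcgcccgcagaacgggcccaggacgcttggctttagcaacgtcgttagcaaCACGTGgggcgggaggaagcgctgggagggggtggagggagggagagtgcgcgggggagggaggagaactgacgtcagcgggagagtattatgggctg
Phc1, chr6:122340228-122340477, minus strand: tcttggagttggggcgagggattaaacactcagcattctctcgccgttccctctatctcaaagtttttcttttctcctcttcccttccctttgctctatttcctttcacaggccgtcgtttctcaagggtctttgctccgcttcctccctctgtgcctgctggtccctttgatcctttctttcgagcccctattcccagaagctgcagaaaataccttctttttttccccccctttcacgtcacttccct
The E-box stood 215 bases before the start of Bmi1, called higher over all lymphomas and with shEzh2.781 but not with shEzh2.556. It stood 98 bases before that of Cbx8, called lower over all lymphomas and with each hairpin. Of 10 windows of this length from 8 members (Pcgf5 has 3 starts), these 2 held it, beside 6.0% of the 32851 windows in the table. The window of Bmi1 held 21 CpG dinucleotides, that of Cbx8 22, that of Pcgf6 14 and that of Phc1 8, beside a median of 6 over all windows. No promoter was shown for Cbx2.

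Neither catalytic subunit was called against premalignant cells. Rnf2, the main H2A ubiquitin ligase of PRC1, had 10.68 and 10.53 in shEzh2.781 lymphomas, 10.04 and 10.26 in shEzh2.556 lymphomas, and 10.43 and 10.36 in premalignant cells. The premalignant arrays thus lay between those of the hairpins. Over all lymphomas the difference was -0.02 (95% interval -0.25 to 0.21, adjusted p = 0.942 by limma). Rnf2 was 0.46 higher in shEzh2.781 than in shEzh2.556 lymphomas (SE 0.12, limma adjusted p = 0.0362, and 0.131 when all probe sets were tested). That call was lost after quantile normalization (adjusted p = 0.0697) and without any 1 of the 4 lymphoma arrays (0.166 and 0.0632 without shEzh2.781 arrays 1 and 2, 0.216 and 0.0502 without shEzh2.556 arrays 1 and 2). Ring1, its paralogue, had 8.73 and 8.77 in shEzh2.781 lymphomas, 8.50 and 8.42 in shEzh2.556 lymphomas, and 8.68 and 8.81 in premalignant cells. Both shEzh2.556 arrays were below the other 4, but the difference between hairpins, 0.29 (95% interval 0.05 to 0.53), was not called (limma adjusted p = 0.11), although it was with array medians set equal (0.40, adjusted p = 0.0293).

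The PCGF genes moved most unevenly, both among themselves and between the hairpins. Bmi1, a PCGF subunit of canonical PRC1, had 10.14 and 10.08 in shEzh2.781 lymphomas, 8.78 and 9.07 in shEzh2.556 lymphomas, and 8.76 and 8.58 in premalignant cells. Both shEzh2.781 arrays stood far above all others, while the lower shEzh2.556 array was close to the higher premalignant one. Bmi1 rose 2.71-fold with shEzh2.781 (1.44, SE 0.13, limma adjusted p = 3.05e-05), the rise at rank 92 of 19938 genes. With shEzh2.556 the difference was 0.26 (95% interval -0.02 to 0.54, adjusted p = 0.182), and after quantile normalization it was 0.39 (adjusted p = 0.0438). The hairpins differed by 1.18 (SE 0.13, limma adjusted p = 0.000261), and this call held under all 13 alternatives run, with differences of 1.03 to 1.32.

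Pcgf5, which builds variant complexes that deposit H2A ubiquitin broadly, moved the other way. It had 8.34 and 8.25 in shEzh2.781 lymphomas, 7.50 and 7.51 in shEzh2.556 lymphomas, and 8.71 and 8.70 in premalignant cells. The 3 groups did not overlap, and the shEzh2.556 arrays were lowest. Pcgf5 fell 2.29-fold with shEzh2.556 (log2 difference -1.20, SE 0.11, limma adjusted p = 1.65e-05). With shEzh2.781 it fell by 0.41 (SE 0.11, adjusted p = 0.0328), a call lost with array medians set equal (-0.29, adjusted p = 0.112) and without any 1 of 4 arrays (adjusted p = 0.0965 and 0.118 without premalignant arrays 1 and 2, 0.099 and 0.243 without shEzh2.781 arrays 1 and 2). The shEzh2.781 call was also lost when all probe sets were tested (limma adjusted p = 0.0934). The hairpins differed by 0.79 (SE 0.11, limma adjusted p = 0.00117), and this held under all 13 alternatives. With 1 array left in a group, that array is assumed to vary like the other groups.

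Pcgf6, the PCGF protein of the complex that holds the MAX partner Mga and E2f6, was higher to a similar extent with both hairpins. Its signal was 10.63 and 10.89 in shEzh2.781 lymphomas, 10.62 and 10.83 in shEzh2.556 lymphomas, and 10.20 and 10.29 in premalignant cells. All 4 lymphoma arrays were above both premalignant arrays. It rose by 0.50 over all lymphomas (SE 0.11, limma adjusted p = 0.00984), by 0.51 with shEzh2.781 (adjusted p = 0.0243) and by 0.48 with shEzh2.556 (adjusted p = 0.0237). The first call was lost without premalignant array 1 or 2 (adjusted p = 0.0952 and 0.0536). The shEzh2.781 call was lost without these or shEzh2.781 array 2 (0.117, 0.0909 and 0.222), and the shEzh2.556 call without these or shEzh2.556 array 2 (0.132, 0.0571 and 0.129). All 3 calls were also lost when all probe sets were tested (0.0606 over all lymphomas, 0.111 with shEzh2.781 and 0.0876 with shEzh2.556). Between hairpins Pcgf6 differed by 0.03 (95% interval -0.25 to 0.31), and by -0.02 after quantile normalization. Of the other PCGF genes, Pcgf1 and Pcgf2 were called in none of the 4 comparisons. Pcgf3, whose complexes overlap with those of Pcgf5, had 9.35 and 9.08 in shEzh2.781 lymphomas, 8.85 and 9.13 in shEzh2.556 lymphomas, and 9.74 and 9.62 in premalignant cells. It fell by 0.69 with shEzh2.556 (SE 0.14, limma adjusted p = 0.00437, and 0.0552 without shEzh2.556 array 1), and with shEzh2.781 the difference was -0.46 (adjusted p = 0.052).

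**Figure D3:**
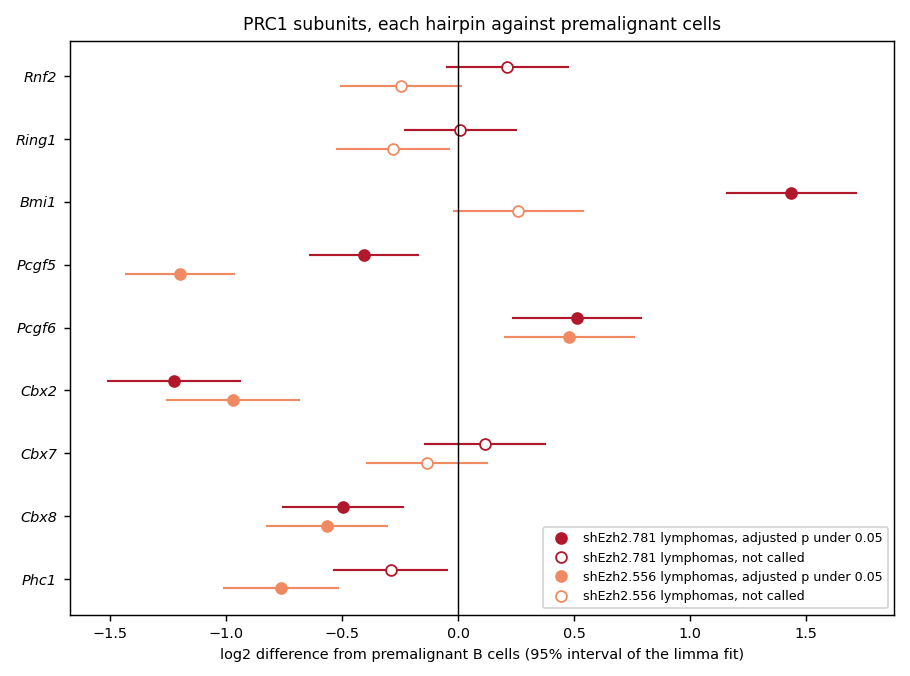
Log2 difference of the 9 PRC1 genes from premalignant B cells (x axis), for shEzh2.781 lymphomas (upper point of each gene) and shEzh2.556 lymphomas (lower point), with the 95% interval of the limma fit. Filled points were called at an adjusted p under 0.05. Bmi1 and Pcgf5 lie far apart between the hairpins, while Pcgf6, Cbx2 and Cbx8 lie close together.

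Among the chromodomain genes, Cbx2 and Cbx8 were lower in the lymphomas while Cbx7 was not called. Cbx2, which compacts nucleosomes and is known for roles in development, had 8.92 and 8.68 in shEzh2.781 lymphomas, 9.13 and 8.98 in shEzh2.556 lymphomas, and 10.15 and 9.90 in premalignant cells. All 4 lymphoma arrays were below both premalignant arrays. Cbx2 fell 2.14-fold over all lymphomas (log2 difference -1.10, SE 0.11, limma adjusted p = 5.01e-05), by 1.23 with shEzh2.781 (adjusted p = 0.000107) and by 0.97 with shEzh2.556 (adjusted p = 0.000329). All 3 calls held under every alternative run, the fit of 4 lymphomas as one group included. The difference between hairpins, -0.25 (95% interval -0.54 to 0.03), was not called (adjusted p = 0.205).

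Cbx8, a chromodomain protein that in human fibroblasts represses the Cdkn2a locus, had 7.62 and 7.82 in shEzh2.781 lymphomas, 7.73 and 7.56 in shEzh2.556 lymphomas, and 8.23 and 8.19 in premalignant cells. The lymphoma arrays were again all below the premalignant ones, and those of the hairpins overlapped. Cbx8 fell 1.45-fold over all lymphomas (log2 difference -0.53, SE 0.10, limma adjusted p = 0.00433), a call that held under all 14 alternatives. It fell by 0.50 with shEzh2.781 (adjusted p = 0.0206, and 0.0934 when all probe sets were tested) and by 0.57 with shEzh2.556 (adjusted p = 0.00679). The shEzh2.781 call was lost with array medians set equal (-0.38, adjusted p = 0.0638) and without premalignant array 1, premalignant array 2 or shEzh2.781 array 1 (0.0886, 0.0912 and 0.18). The shEzh2.556 call was lost without shEzh2.556 array 2 (0.0546). Cbx7, the CBX protein known for sustaining stem cells and for driving lymphoma when overexpressed in mice, had 9.77 and 9.63 in shEzh2.781 lymphomas, 9.39 and 9.51 in shEzh2.556 lymphomas, and 9.49 and 9.68 in premalignant cells. The premalignant arrays lay among those of the lymphomas. Over all lymphomas Cbx7 differed by -0.01 (95% interval -0.24 to 0.22, adjusted p = 0.968 by limma), and by 0.04 after quantile normalization.

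Phc1, a polyhomeotic protein of canonical PRC1, fell with 1 hairpin and was intermediate with the other. It had 9.45 and 9.35 in shEzh2.781 lymphomas, 8.86 and 8.998 in shEzh2.556 lymphomas, and 9.73 and 9.65 in premalignant cells. The 3 groups did not overlap. Phc1 fell by 0.77 with shEzh2.556 (SE 0.11, limma adjusted p = 0.000656) and differed by -0.29 with shEzh2.781 (adjusted p = 0.144). It was 0.47 higher in shEzh2.781 than in shEzh2.556 lymphomas (SE 0.11, limma adjusted p = 0.0261), a call lost after quantile normalization (0.36, adjusted p = 0.0701) and without any 1 of the 4 lymphoma arrays (0.125 and 0.0621 without shEzh2.781 arrays 1 and 2, 0.155 and 0.0547 without shEzh2.556 arrays 1 and 2). That difference between hairpins was also no longer called when all probe sets were tested (limma adjusted p = 0.109). The Phc1 paralogues Phc2 and Phc3 were called in none of the 4 comparisons. Phc2 had 9.43 and 9.37 in shEzh2.781 lymphomas, 9.55 and 9.62 in shEzh2.556 lymphomas, and 9.55 and 9.58 in premalignant cells.

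Neutrophil markers moved in the same direction as Bmi1, Pcgf5, Phc1 and Rnf2 between the hairpins. Of 10 such markers 9 were called higher in shEzh2.781 than in shEzh2.556 lymphomas, with a median difference of 1.71, and their part in the differences of these 4 genes was not tested. Against premalignant cells 8 of these 10 markers were called lower with shEzh2.781, beside 6.24% of all genes, and Bmi1 was called higher. Pcgf5, Phc1 and the mean of the neutrophil markers were each highest in premalignant cells and lowest in shEzh2.556 lymphomas. Rnf2 was not called against premalignant cells. The 5 erythroid markers measured were all lower in shEzh2.781 than in shEzh2.556 lymphomas, with a median difference of -1.12. Of the 10 pro-B and pre-B cell markers 4 were called higher and 1 lower in shEzh2.781 than in shEzh2.556 lymphomas. Il7r (1.89), Rag1 (0.96), Rag2 (0.88) and Vpreb3 (0.43) were the higher ones and Vpreb2 (-0.54) the lower one. Of the remaining lists, 2 of 5 plasma cell markers were called higher, and 2 of 9 macrophage and monocyte, 1 of 8 T cell and 1 of 7 stromal and endothelial markers lower. The part of these lists was not tested either. No mitosis gene of 17 was called between the hairpins, where 10.0% of all genes were called.

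Balance within each family was then read from the difference between 2 members on the same array, which any offset common to an array does not affect. Probe sets differ in affinity, so such a difference on 1 array does not say which gene has more RNA, and what is compared is its change between groups. That change is given with no test, and it is a change of RNA, not of complexes. For Cbx7 minus Cbx2 the arrays had 0.85 and 0.95 in shEzh2.781 lymphomas, 0.27 and 0.53 in shEzh2.556 lymphomas, and -0.65 and -0.22 in premalignant cells. The 3 groups did not overlap, and the difference moved towards Cbx7 by 1.34 with shEzh2.781 and by 0.84 with shEzh2.556, beside a standard deviation between replicates of 0.21. Without premalignant array 1 the values were 1.13 and 0.62, and without premalignant array 2 they were 1.55 and 1.05. Cbx8 minus Cbx2 moved less, by 0.73 with shEzh2.781 and 0.40 with shEzh2.556, and Cbx7 minus Cbx8 by 0.61 and 0.43. In the CBX family Cbx2 thus fell relative to both others on all 4 lymphoma arrays.

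Of the 3 PCGF pairs compared, Bmi1 minus Pcgf5 shifted by 1.65 over all lymphomas, Pcgf5 minus Pcgf6 by -1.30 and Bmi1 minus Pcgf6 by 0.35. Bmi1 minus Pcgf5 was 1.79 and 1.83 on the shEzh2.781 arrays, 1.28 and 1.57 on the shEzh2.556 arrays, and 0.05 and -0.12 on the premalignant arrays. All 4 lymphoma arrays were far above both premalignant arrays. The shift towards Bmi1 was 1.84 with shEzh2.781 and 1.46 with shEzh2.556, but it was made of different members. With shEzh2.781 most of it was the rise of Bmi1, and with shEzh2.556 most of it was the fall of Pcgf5. Bmi1 minus Pcgf6 moved by 0.92 with shEzh2.781 and by -0.22 with shEzh2.556, so these hairpins differed by 1.14. Pcgf5 minus Pcgf6 moved by -0.92 with shEzh2.781 and by -1.68 with shEzh2.556.

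Polyhomeotic genes shifted with 1 hairpin more than with the other. Phc1 minus Phc2 was 0.02 and -0.01 on the shEzh2.781 arrays, -0.70 and -0.62 on the shEzh2.556 arrays, and 0.19 and 0.07 on the premalignant arrays. It moved by -0.12 with shEzh2.781 and by -0.79 with shEzh2.556, and Phc1 minus Phc3 by -0.13 and -0.70. For the catalytic pair, Rnf2 minus Ring1 moved by 0.20 and 0.04, near the 0.16 standard deviation between replicates.

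**Figure D4:**
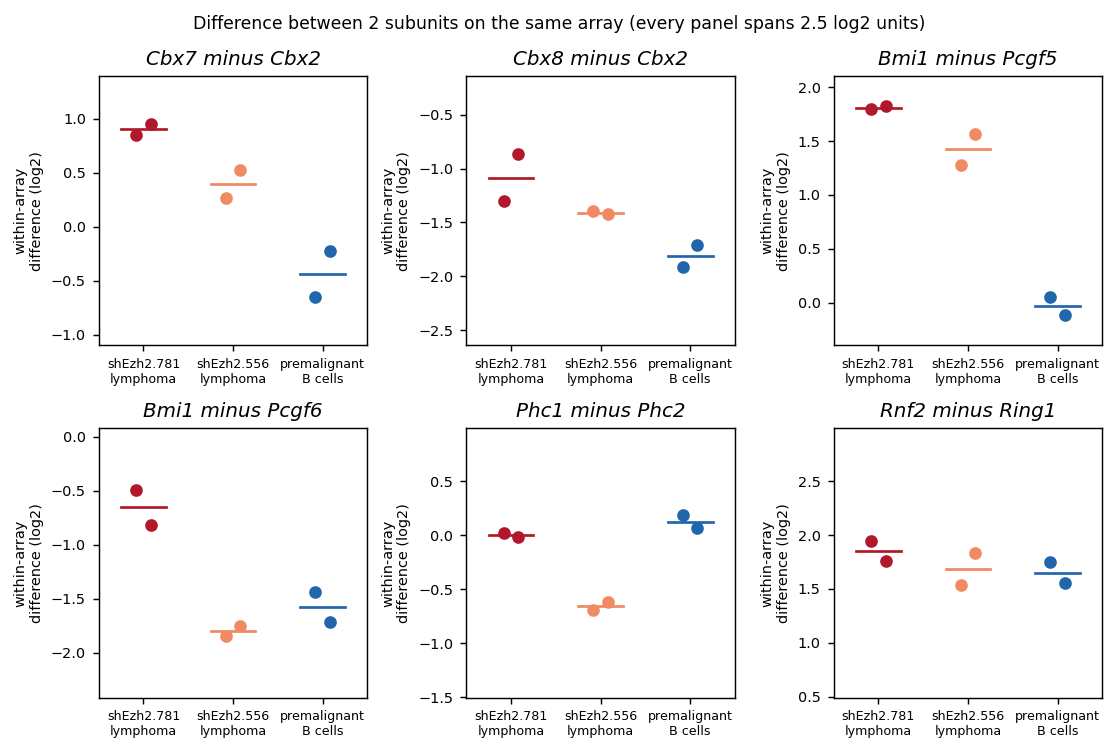
Difference in log2 signal between 2 subunits of a family on the same array (y axis), by group (x axis). Points are arrays and lines are group means of 2 arrays. Cbx7 minus Cbx2 and Bmi1 minus Pcgf5 are higher on all 4 lymphoma arrays than on both premalignant arrays, Bmi1 minus Pcgf6 is higher with shEzh2.781 alone, and Rnf2 minus Ring1 overlaps between the groups.

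Over all lymphomas, other subunits of PRC1 were lower where they were called, with 1 exception. Of 16 further subunits of variant complexes, 5 fell and 1 rose, where 9.61% of all genes were called lower and 5.60% higher. The median of the 16 was -0.16 beside 0.03 over all genes. Bcor, the corepressor that joins the Pcgf1 complex, had 8.87 and 8.92 in shEzh2.781 lymphomas, 8.55 and 8.70 in shEzh2.556 lymphomas, and 9.71 and 9.65 in premalignant cells. It lay below both premalignant arrays on all 4 lymphoma arrays and fell 1.89-fold (log2 difference -0.92, SE 0.10, limma adjusted p = 5.80e-05), under every alternative run. Yaf2, a RYBP-type subunit of variant complexes, fell by 0.43 (SE 0.10, limma adjusted p = 0.00995, and 0.0941 without premalignant array 1). Auts2, which joins the complexes of Pcgf3 and Pcgf5, fell by 0.59 (SE 0.11, adjusted p = 0.00246 by limma). Its call with shEzh2.556 (-0.48, adjusted p = 0.0181) was lost when all probe sets were tested (0.073) and without premalignant array 2 or shEzh2.556 array 1 (0.0955 and 0.133). Pcgf3 and Fbrs were the other calls downwards, and Wdr5, a subunit shared with other chromatin complexes, was the call upwards (0.30, limma adjusted p = 0.0494, lost without any 1 array, with adjusted p of 0.0766 to 0.215). Fbrs was lost without premalignant array 2 or shEzh2.556 array 1, and Pcgf3 without premalignant array 1. When all probe sets were tested, Fbrs, Pcgf3 and Wdr5 were each lost (limma adjusted p = 0.102, 0.0516 and 0.0986).

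Kdm2b, the CpG-binding subunit that recruits the Pcgf1 complex, had 9.18 and 8.97 in shEzh2.781 lymphomas, 8.52 and 8.64 in shEzh2.556 lymphomas, and 8.80 and 8.67 in premalignant cells. It was 0.50 higher with shEzh2.781 than with shEzh2.556 (SE 0.12, limma adjusted p = 0.027, and 0.119 when all probe sets were tested). Kdm2b was the sole one of the 16 called between hairpins, where 10.0% of all genes were called. This was lost after quantile normalization (adjusted p = 0.0727) and without shEzh2.781 array 1, shEzh2.556 array 1 or shEzh2.556 array 2 (0.154, 0.154 and 0.0637). Rybp was called in none of the comparisons. Over all lymphomas 9.61% of all genes were called lower. Of 5 further canonical subunits measured, Scmh1 alone fell (-0.37, SE 0.10, limma adjusted p = 0.0281, and 0.0853 when all probe sets were tested). The Scmh1 call was also lost without any of 4 arrays (premalignant arrays 1 and 2, shEzh2.781 array 2 and shEzh2.556 array 1).

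**Figure D5:**
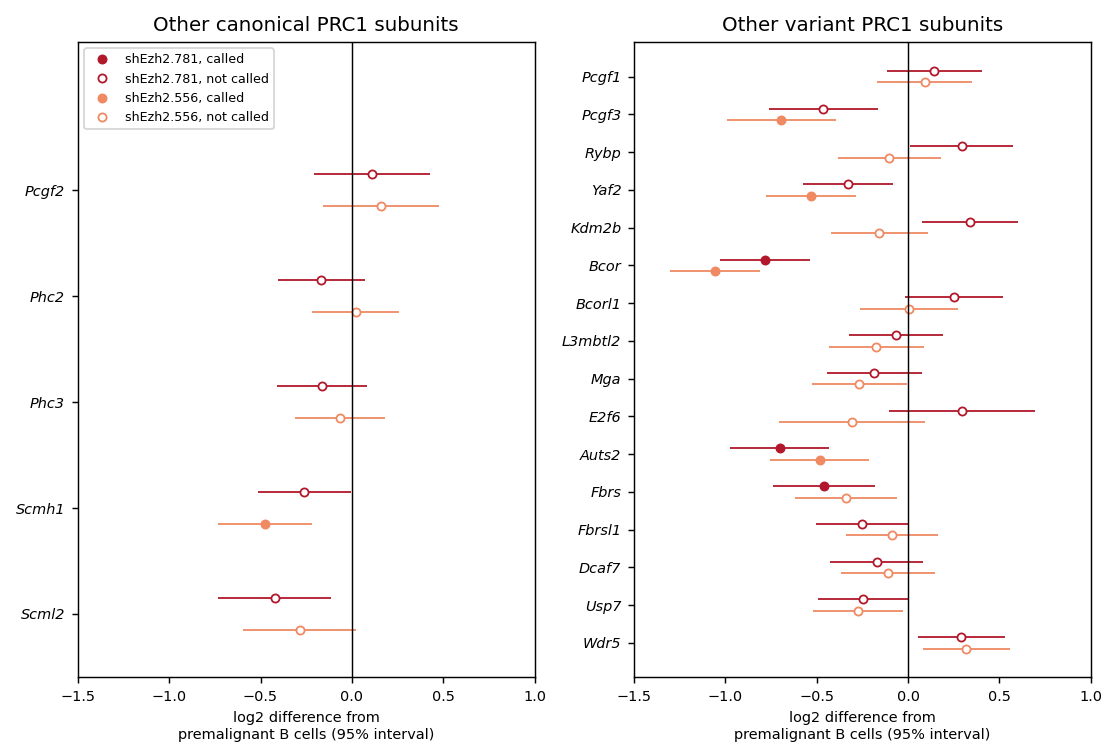
Log2 difference from premalignant B cells (x axis) of 5 further canonical and 16 further variant PRC1 subunits, for shEzh2.781 lymphomas (upper point of each gene) and shEzh2.556 lymphomas (lower point), with 95% intervals of the limma fit. Filled points were called. Bcor and Auts2 are filled for both hairpins, though the Auts2 call with shEzh2.556 was lost without premalignant array 2 or shEzh2.556 array 1.

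The enzymes that oppose and precede PRC1 were set beside it. Of all genes, 9.61% were called lower over all lymphomas and 11.4% with shEzh2.556. Of 11 genes for H2A deubiquitination, Asxl1, a partner of the deubiquitinase Bap1, fell by 0.42 over all lymphomas (SE 0.10, limma adjusted p = 0.015, and 0.132 without premalignant array 1), Hcfc1 fell by 0.33 (adjusted p = 0.0314, and 0.0567 to 0.154 without any 1 array), and Bap1 differed by -0.09 (adjusted p = 0.617). The Asxl1 and Hcfc1 calls were lost when all probe sets were tested (limma adjusted p = 0.0621 and 0.0756). With shEzh2.556, 2 of these 11 genes were called lower, Asxl1 (-0.41, limma adjusted p = 0.0313) and Usp21 (-0.42, 0.0264). Both were lost when all probe sets were tested (0.0876 and 0.077). In PRC2, the complex that makes the mark read by CBX proteins, Ezh2 was 10.92 and 11.07 in shEzh2.781 lymphomas, 11.20 and 11.30 in shEzh2.556 lymphomas, and 12.64 and 12.70 in premalignant cells. It alone of 11 PRC2 genes was called over all lymphomas. With shEzh2.556, Suz12 (-0.39, limma adjusted p = 0.0272), Rbbp4 (-0.43, 0.0299) and Mtf2 (-0.44, 0.0217) were called lower as well. Each was lost when all probe sets were tested (0.0704, 0.0927 and 0.0695) and without premalignant array 1. Suz12 was also lost without premalignant array 2 or either shEzh2.556 array, Rbbp4 without shEzh2.556 array 2, and Mtf2 without shEzh2.556 array 1. The Ezh2 difference over all lymphomas was -1.55, beside -1.10 for Cbx2, the largest fall among the 9 PRC1 genes over all lymphomas.

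Cdkn2a and Cdkn2b, the locus that PRC1 is best known to repress in proliferating cells, were then read. Cdkn2a, which encodes p16 and p19Arf, had 7.503 and 7.27 in shEzh2.781 lymphomas, 8.10 and 7.56 in shEzh2.556 lymphomas, and 7.76 and 7.82 in premalignant cells. It was called in none of the 4 comparisons. The difference of shEzh2.781 minus shEzh2.556 was -0.45 (95% interval -0.81 to -0.09, limma adjusted p = 0.095), and -0.72 to -0.18 without 1 array. A link of Bmi1 with Cdkn2a was not tested. Cdkn2b, its neighbour encoding p15, had 7.18 and 7.15 in shEzh2.781 lymphomas, 7.55 and 7.53 in shEzh2.556 lymphomas, and 7.17 and 7.18 in premalignant cells. Both shEzh2.556 arrays were above the other 4, by 0.36 against premalignant cells (SE 0.11, limma adjusted p = 0.0349) and by 0.37 against shEzh2.781 lymphomas (adjusted p = 0.0478). Each of these calls was lost without any 1 of the 6 arrays, with adjusted p of 0.0568 to 0.141 for the first and of 0.0502 to 0.222 for the second.

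For each PRC1 gene called against premalignant cells, the genes most like it were sought. They were those with the smallest root mean square difference over the 6 arrays, after each gene's own mean was taken off. For Cbx2 these were Pde4d, a cyclic AMP phosphodiesterase (0.070), Rundc3b (0.078) and Grb7, a signalling adaptor (0.079). For Bmi1 they were E330020D12Rik (0.151), Ppp4r4, a protein phosphatase subunit (0.151), and Atp11a, a phospholipid flippase (0.166), so no gene followed Bmi1 as closely as others did Cbx2. For Pcgf5 they were Mybpc2 (0.067), Rnf157, a ubiquitin ligase (0.069), and Tceal9 (0.075). For Phc1 they were Nfyb, a subunit of the CCAAT-binding factor (0.025), N4bp2 (0.034) and Gpsm2 (0.036), for Cbx8 3010003L21Rik (0.046), Slco4c1 (0.050) and Abtb1 (0.054), and for Pcgf6 Adgrl1 (0.032), Mcoln2 (0.054) and Olfr1160 (0.063). With 6 arrays in 3 groups, 19937 genes compared and members of unequal spread, such closeness is a description.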

How the data were processed

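RNA of the 6 samples was measured on 1-colour Mouse Gene ST arrays with biotin labelling. Per the labels' protocols, lymphoma cells were purified by CD43 bead depletion with a purity of 95% or more by B220 and GFP, while premalignant cells are called sorted. The premalignant samples are called normal control cells in one label field, and the titles were followed. The authors deposited 1 log2 value per probe set, a scale read from the values (2.30 to 14.22). Background correction, normalization and summarization are not given in the sources used here. Precision is limited by having 2 arrays a group.

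Among 35512 probe sets, 21789 were annotated with a single symbol, 1621 with several and 12102 with none, and only the first kind was used. The probe set with the highest mean was kept for each of 19938 genes. Of those 21789, 21698 had an Entrez identifier in the RefSeq gene table (GRCm38.p6), and 0 symbols changed. The 3 groups were fitted with limma 3.58.1 in R 4.3.3 without covariates (8.51 prior and 3 residual degrees of freedom). Calls were made at a Benjamini-Hochberg adjusted p under 0.05. The fit was tested on simulated data. Members, gene lists and the rule for named genes were chosen with earlier results of these data known. The rule took all 9 members, called genes of the fixed lists, Ezh2, Cdkn2a and Cdkn2b. It also took the 3 nearest genes of each member called against premalignant cells. Single cell type markers were named after their values were seen. Alternatives were quantile normalization, equal array medians, a filter on dim genes, all probe sets, trended and robust variances, a replicate block, 1 lymphoma group and leaving out each array. Python 3.11.15 with pandas 2.3.3 prepared the tables, and matplotlib 3.10.9 drew the plots.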

Additional observations from a re-analysis of the deposited data

Results flagged for a closer look

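By the direct limma comparison, 6 genes differed between shEzh2.781 and shEzh2.556 lymphomas. They were sought among the members, the fixed lists other than cell type markers, Cdkn2a and Cdkn2b. Of the 9 members 4 were called, and of the 16 further variant subunits 1. No gene of the other lists was called, 17 mitosis, 11 PRC2 and 11 H2A deubiquitination genes included. Of all genes, 10.0% were called in this comparison. Whether the hairpins or single tumours gave these differences was not tested. In shEzh2.781 minus shEzh2.556 lymphomas, Bmi1 differed by 1.18, Pcgf5 by 0.792, Phc1 by 0.473, Rnf2 by 0.458 and Kdm2b by 0.497, each higher with shEzh2.781. Cdkn2b differed by -0.375. The calls of Bmi1 and Pcgf5 held under all 13 alternatives, and those of the other 4 were lost in some of them. Neutrophil markers were higher in shEzh2.781 lymphomas as well (9 of 10 called) and erythroid markers lower (5 of 5), and of 10 pro-B and pre-B cell markers 4 were higher and 1 lower. Their part in these differences was not tested.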

How the results depend on the processing

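Over 36 pairs of member and comparison, 477 values were recomputed. Of these 418 kept direction and side of the threshold, 40 kept direction but were no longer called, 2 became called and 17 changed sign, all 17 in values that were not called. The calls of Bmi1 with shEzh2.781, of Bmi1 and Pcgf5 between hairpins, of Pcgf5 and Phc1 with shEzh2.556, of Cbx2 in its 3 comparisons and of Cbx8 over all lymphomas held in all alternatives run. With the 4 lymphomas as one group, 1091 genes and 2 members were called, beside 3033 and 6. Testing all probe sets gave 1247 genes and 2 members with shEzh2.781 (2161 and 5 as reported), and 317 genes and 2 members between hairpins (2000 and 4). Quantile normalization left 2 members between hairpins, and equal array medians left 3 with shEzh2.781. Equal medians moved the median of all genes by 0.121 with shEzh2.781 and by 0.114 between hairpins. They changed the share of calls that were higher to 52.4% over all lymphomas (36.8% as reported), 67.3% with shEzh2.781 (42.4%) and 83.2% between hairpins (54.8%), and quantile normalization to 49.2% over all lymphomas and 50.7% with shEzh2.556 (37.3%). The cause was not tested.

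Without 1 array each, 1721 to 2833 genes were called over all lymphomas, 1103 to 2048 with shEzh2.781, 1949 to 3669 with shEzh2.556 and 718 to 2085 between hairpins, with 5 to 6, 2 to 5, 3 to 5 and 2 to 4 members. Cbx7 minus Cbx2 then moved by 1.13 to 1.55 with shEzh2.781 and 0.62 to 1.05 with shEzh2.556, Cbx8 minus Cbx2 by 0.51 to 0.95 with shEzh2.781 and 0.11 to 0.54 between hairpins, and Bmi1 minus Pcgf5 by 1.31 to 1.60 with shEzh2.556 and 0.24 to 0.53 between hairpins. Pcgf5 minus Pcgf6 moved by -1.09 to -0.74 with shEzh2.781 and 0.58 to 0.93 between hairpins, and Phc1 minus Phc3 by -0.21 to -0.052 and 0.50 to 0.65. Signs changed for Cbx7 over all lymphomas (0.039 after quantile normalization, 0.054 with equal medians, and -0.10 to 0.082 without 1 array), for Rnf2 over all lymphomas (0.038, 0.047, and -0.073 to 0.038), and for Pcgf6 between hairpins (-0.016 after quantile normalization, and -0.10 to 0.16 without 1 array). They also changed for Cbx8 between hairpins (-0.030 to 0.17 without 1 array), Ring1 with shEzh2.781 (-0.053 to 0.070), Cdkn2b with shEzh2.781 (0.10 after quantile normalization, 0.11 with equal medians, -0.023 to 0.00275 without 1 array) and Cdkn2a with shEzh2.556 (-0.22 to 0.31 without 1 array).

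Same-numbered arrays showed little joint deviation over genes (correlations of -0.0915, -0.124 and 0.0642). A small deviation shared by them would not show in this way, and the labels give no pairing. A replicate block gave 2889, 2078, 3371 and 1783 genes and 6, 4, 5 and 4 members over all lymphomas, with shEzh2.781, with shEzh2.556 and between hairpins. The member lost was Pcgf5 with shEzh2.781 (adjusted p = 0.0529). Each member had 1 probe set, so choosing another gave no value. Signal over background was not analysed here.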
